A study of Mus musculus with 8 samples.

Results

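The 39 Hox cluster genes of the mouse array were followed across 8 arrays of sorted embryonic stem (ES) cells, a control culture and embryonic tissues. They were taken as every non-control probe whose gene name was Hox, a cluster letter from a to d and a number. This gave 45 probes on 63 spots per array, for 39 of the 34541 gene names on the array. The Hoxa cluster had 11 genes, Hoxb 10, Hoxc 9 and Hoxd 9, and 6 genes had 2 probes. The probes lay on chromosome 6 (Hoxa), 11 (Hoxb), 15 (Hoxc) and 2 (Hoxd) of the mm9 build.

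Hox genes encode homeodomain transcription factors that give cells of the body axis their position. Within a cluster the genes are ordered by paralogue number, and low-numbered genes begin further forward in the hindbrain, while high-numbered genes are expressed towards the tail. Neural tissue in front of the hindbrain, which includes the cortex, the retina and most of the hypothalamus, is formed largely without them. Retinoic acid, Wnt and FGF signals, partly through the Cdx factors, open the clusters during axis formation, and Polycomb complexes keep them silent elsewhere.

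The sorted cells were K/l-EB5, a male ES line of 129/Ola background in which green fluorescent protein reports RAX, a homeobox factor of the eye field and hypothalamus. They were turned towards neural fate in a medium whose B27 supplement lacked vitamin A. The Wnt pathway inhibitor IWR-1-endo was present at 5 µM from day 3 in vitro, and after a further 12 h either activin A (10 ng/ml) or SAG, an agonist of the Hedgehog pathway (100 nM), was added. Cells were sorted by RAX::GFP after 10 days in vitro, giving 4 populations (activin RAX-positive, activin RAX-negative, SAG RAX-positive, SAG RAX-negative). The Wi control was another male 129/Ola line, E14Tg2A, with the inhibitor and neither factor, and its labels name no sort. Cortex, diencephalon/hypothalamus and eye came from 3 Sv129s6 embryos of mixed sex at E12.5, with no treatment. RNA of 3 sets of experiments was pooled and each group had 1 array, so no p-value is given and each comparison sets 1 array against another. In these bulk samples, fewer cells with a transcript and less of it in each cell cannot be told apart.

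Signal is given throughout as log2 of the background-subtracted probe intensity relative to the 75th percentile of its own array, so that a gene at 0 is bright and the dark end lies far below 0. Where a gene had several probes, the one brightest on average stood for it. It counted as well above background where the scanner software made that call for its spots, or for as many of them as not. Spots so called made up 59.5% (activin RAX-negative) to 79.3% (activin RAX-positive) of an array, and 0 were saturated. Of the tissue markers, Emx2 stood at 3.98 in cortex, Nkx2-1 at 3.28 in diencephalon/hypothalamus and Rax at 4.71 in eye, the highest of the 3 tissues each time. In the Wi control Six6 and Nkx2-1 were not well above background and Rax stood at -3.90, against 2.50 to 5.67 in the sorted cells. The Wi control was alone on slide 2 and the other 7 arrays shared slide 1, where the RAX-positive arrays were in column 1 and the RAX-negative arrays in column 2. The line, the sort, the missing factor and the slide of the Wi control therefore cannot be told apart, nor can the RAX gate and the slide column. Cortex was also in column 2, with diencephalon/hypothalamus and eye in column 1, so tissue and column cannot be told apart in comparisons with cortex. The 3 arrays in column 2 of slide 1 had the fewest Hox genes well above background (3, 4 and 9).

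Probe sequences decide what a Hox signal can mean, because the homeodomain is alike in all family members. The probes of 3 genes, Hoxb3, Hoxc11 and Hoxc12, cover the stretch that codes for the recognition helix, that of Hoxc12 only its end. The patterns searched for it were the Hoxc11 letters with codon positions that can vary set to N. The letters TGGTTNCANAAN, searched on the sense strand, occurred in 23 of 55681 probes (0.0413%), of which 2 were Hox probes. The letters that follow, NGNNGNATGAAN, occurred in 233 probes (0.418%), of which 3 were Hox probes. Shown whole, 5′ to 3′, as given in the deposited files and with the patterns in capitals, are the probes of Hoxc11 (chr15:102787022-102787081, + strand) and Hoxc12 (chr15:102768889-102768948, + strand), both on mm9.
Hoxc11: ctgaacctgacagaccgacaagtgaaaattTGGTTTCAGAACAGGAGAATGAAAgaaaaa
Hoxc12: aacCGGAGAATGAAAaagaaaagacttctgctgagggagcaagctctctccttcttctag
Neither pattern was found in another Hox probe. The last 30 bases of 4 probes are printed because these genes carry results below, and the hexamer AATAAA, the commonest signal for cleavage and polyadenylation, is in capitals where present. It occurred in 7 of 45 Hox probes, against 5602 of all 55681 probes (10.1%). The stretches are chr15:102842273-102842302 (Hoxc6, + strand), chr15:102867243-102867272 (Hoxc4, + strand), chr11:96057884-96057913 (Hoxb13, + strand) and chr11:96209032-96209061 (the other Hoxb3 probe, + strand) on mm9.
Hoxc6: ttctcgaatatttAATAAAactgatattat
Hoxc4: cccgtgatcaatAATAAAccagtggctgtg
Hoxb13: AATAAAttcggaagacgatcttgtaggaca
Hoxb3, other probe: atgttaaactcgtacatatgaggaattgta
Which exon or untranslated region each probe covers was not annotated here, since no mm9 gene models were used.

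Of the 39 Hox genes, 35 were well above background on at least 1 array. The other 4, Hoxa5, Hoxa10, Hoxa11 and Hoxb1, were not so on any array, and their signals ran from -9.11 to -5.81. Hoxa9 alone was well above background on all 8 arrays. The Wi control held the most, 28 of 39 Hox genes (71.8%), where 72.4% of all genes were well above background. The activin RAX-positive array followed with 22 (56.4%, all genes 82.5%), then diencephalon/hypothalamus with 15 (38.5%, all genes 76.6%). SAG RAX-positive cells and eye had 12 each (30.8%, with 74.1% and 78.5% of all genes), SAG RAX-negative cells 9 (23.1%, all genes 70.6%), activin RAX-negative cells 4 (10.3%, all genes 65.3%) and cortex 3 (7.69%, all genes 67.8%).

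The low end of the activin RAX-positive array was raised, which bears on its count of 22. Olfactory and vomeronasal receptor genes, 1348 on the array, are normally silent in these cells and tissues and served as a mark of that low end. Of these receptors 44.1% were well above background in activin RAX-positive cells, against 11.7% to 24.5% on the other 7 arrays. Their median signal was -5.98 there and between -8.48 and -7.01 elsewhere. The median of the 39 Hox genes was -5.45 on the same array, little above the receptors. In the Wi control the Hox median was -5.11 and the receptor median -8.14. The medians of Hox and receptor genes were -7.02 and -8.48 in diencephalon/hypothalamus, and -7.51 and -8.06 in eye. They nearly coincided on the remaining arrays, with -7.38 and -7.42 in activin RAX-negative cells, -7.05 and -7.01 in SAG RAX-positive cells, -7.45 and -7.45 in SAG RAX-negative cells, and -8.09 and -8.07 in cortex.

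A stricter mark was therefore set beside detection, namely a signal that was well above background and also above the 95th percentile of the receptor genes of the same array. By construction 5.04% of receptors pass that percentile. In the Wi control 13 of 39 Hox genes passed (33.3%), against 59.1% of all genes. In diencephalon/hypothalamus 6 passed (15.4%, all genes 61.4%), in activin RAX-positive cells 3 (7.69%, all genes 56%), in cortex 2 (5.13%, all genes 58.5%) and in SAG RAX-positive cells 1 (2.56%, all genes 57.7%). There were 0 in activin RAX-negative cells (all genes 56.8%), SAG RAX-negative cells (all genes 56.6%) or eye (all genes 60.6%). Of the 22 Hox genes detected in activin RAX-positive cells, 3 were thus above the mark, against 13 of 28 in the Wi control. Of the 20 genes above the mark on at least 1 array, 19 are described one by one, and the other 19 by counts and ranges.

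**Figure D1:**
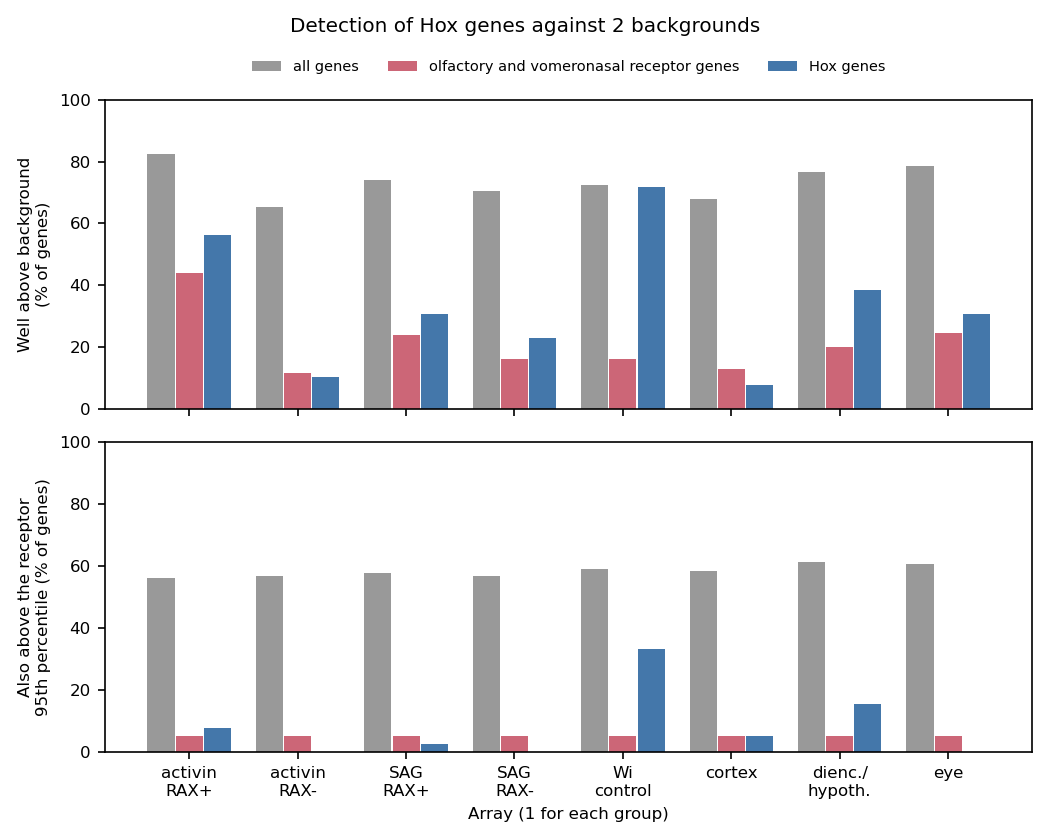
Share of all 34541 genes, of 1348 olfactory and vomeronasal receptor genes and of 39 Hox genes that were well above background (upper panel, percent) and that were also above the 95th percentile of the receptor genes of the same array (lower panel, percent), for 8 arrays of 1 per group. In the Wi control the Hox bar reaches 71.8% and 33.3%, and in activin RAX-positive cells it falls from 56.4% to 7.69%.

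**Figure D2:**
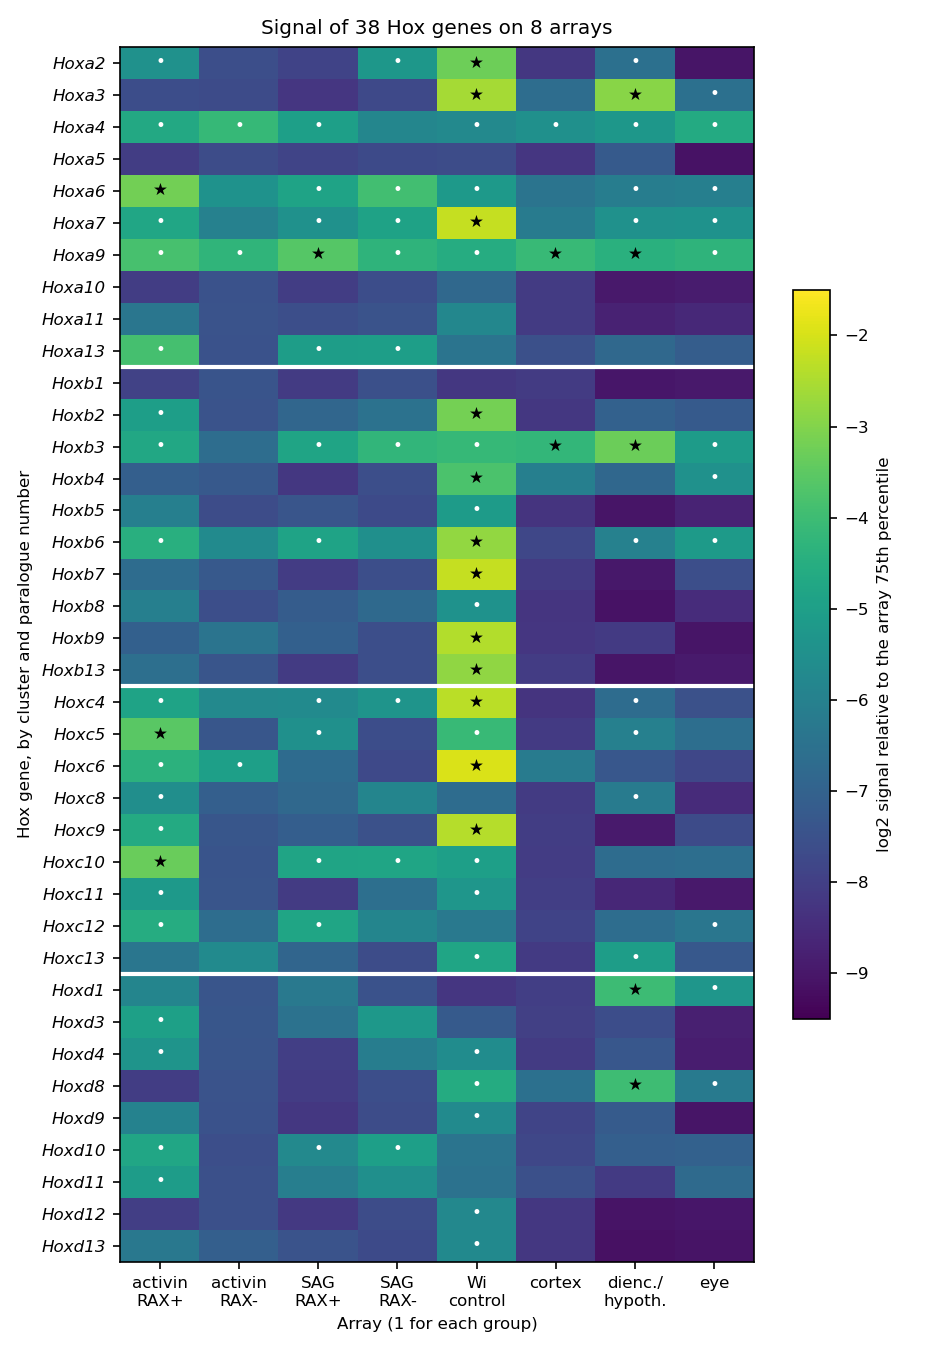
Signal of 38 of the 39 Hox genes (from top to bottom by cluster and paralogue number) on the 8 arrays (columns) as log2 relative to the 75th percentile of the array, with a white dot where well above background and a black star where also above the receptor mark. Colours are to be compared across arrays within a gene, since probes differ in brightness. Of the 19 genes with a star, 12 carry it in the Wi control column and 5 in the diencephalon/hypothalamus column.

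The Wi control held a broad set of Hox genes from the Hoxa, Hoxb and Hoxc clusters. Above the mark were 4 of 11 Hoxa genes, 6 of 10 Hoxb genes, 3 of 9 Hoxc genes and 0 of 9 Hoxd genes, and 11 of these 13 genes were above it on no other array. By paralogue number they were 6 of the 12 genes numbered 1 to 4, 4 of the 11 numbered 5 to 8 and 3 of the 16 numbered 9 to 13. Hoxd genes were nonetheless detected, with 5 of 9 well above background at -5.78 to -4.58. Of the 35 genes well above background on some array, 18 had their highest such level on this array, 11 on the activin RAX-positive array with its raised low end and 4 in diencephalon/hypothalamus.

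Low-numbered genes of the Wi control came first by position. Hoxa2, which patterns the hindbrain and the crest of the second pharyngeal arch, measured -3.27 in the Wi control, against -5.46 and -7.58 in the RAX-positive and RAX-negative cells of activin and -7.88 and -5.27 in those of SAG. Cortex had -8.20, diencephalon/hypothalamus -6.54 and eye -9.05, and activin RAX-positive cells, SAG RAX-negative cells, the Wi control and diencephalon/hypothalamus were well above background. It was higher in the Wi control than on each other array. Hoxa3, known for the thymus and other pharyngeal organs, stood at -2.58 in the Wi control, -7.60 and -7.66 in activin RAX-positive and RAX-negative cells, and -8.23 and -7.74 in SAG RAX-positive and RAX-negative cells. The tissues gave -6.65 (cortex), -2.92 (diencephalon/hypothalamus) and -6.55 (eye), and the Wi control, diencephalon/hypothalamus and eye were well above background. Among the cultured cells this probe of Hoxa3 was well above background in the Wi control alone.

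Hoxb2 and Hoxb4 also set hindbrain segments. Hoxb2 had a signal of -3.17 in the Wi control, of -5.01 (RAX-positive) and -7.45 (RAX-negative) after activin, and of -6.87 and -6.47 after SAG. Its signal was -8.20 in cortex, -7.02 in diencephalon/hypothalamus and -7.24 in eye, and activin RAX-positive cells and the Wi control were well above background. Hoxb4 measured -3.77 in the Wi control, against -7.09 and -7.25 in the RAX-positive and RAX-negative cells of activin and -8.21 and -7.56 in those of SAG. Cortex had -6.05, diencephalon/hypothalamus -6.83 and eye -5.46, and the Wi control and eye were well above background. Hoxc4, a gene of the neck region, stood at -2.33 in the Wi control, -4.85 and -5.74 in activin RAX-positive and RAX-negative cells, and -5.66 and -5.35 in SAG RAX-positive and RAX-negative cells. The tissues gave -8.31 (cortex), -6.67 (diencephalon/hypothalamus) and -7.51 (eye), and activin RAX-negative cells, cortex and eye were not well above background. Its level was well above background in 3 of the 4 sorted populations and in diencephalon/hypothalamus, each time below that of the Wi control.

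The middle of the clusters was represented by 4 genes that pattern the trunk. Hoxa7 had a signal of -2.21 in the Wi control, of -4.77 (RAX-positive) and -5.99 (RAX-negative) after activin, and of -5.45 and -4.90 after SAG. In cortex, diencephalon/hypothalamus and eye it was -6.18, -5.44 and -5.42, and activin RAX-negative cells and cortex were not well above background. Hoxb6 measured -2.80 in the Wi control, against -4.45 and -5.69 in the RAX-positive and RAX-negative cells of activin and -4.85 and -5.52 in those of SAG. Cortex had -7.80, diencephalon/hypothalamus -5.97 and eye -5.13, and activin RAX-negative cells, SAG RAX-negative cells and cortex were not well above background. Both were thus detected at a lower level on several arrays besides the Wi control. Hoxb7 stood at -2.19 in the Wi control, -6.66 and -7.28 in activin RAX-positive and RAX-negative cells, and -8.07 and -7.56 in SAG RAX-positive and RAX-negative cells. The tissues gave -8.10 (cortex), -8.97 (diencephalon/hypothalamus) and -7.59 (eye), and the Wi control was the array well above background. No other array had Hoxb7 well above background. Hoxc6, which specifies motor neurons at the level of the forelimb, had a signal of -1.96 in the Wi control, of -4.37 (RAX-positive) and -4.98 (RAX-negative) after activin, and of -6.71 and -7.72 after SAG. Its signal was -6.18 in cortex, -7.32 in diencephalon/hypothalamus and -7.79 in eye, and activin RAX-positive cells, activin RAX-negative cells and the Wi control were well above background.

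Genes of the tail side of the clusters were present as well. Hoxb9, a gene of the rib-bearing trunk, measured -2.42 in the Wi control, against -7.05 and -6.42 in the RAX-positive and RAX-negative cells of activin and -7.05 and -7.58 in those of SAG. Cortex had -8.24, diencephalon/hypothalamus -8.14 and eye -9.06, and the Wi control was the array well above background. Hoxb13, the last gene of its cluster and active in the tail bud, stood at -2.83 in the Wi control, -6.57 and -7.38 in activin RAX-positive and RAX-negative cells, and -8.10 and -7.57 in SAG RAX-positive and RAX-negative cells. The tissues gave -8.09 (cortex), -9.04 (diencephalon/hypothalamus) and -8.93 (eye), and the Wi control was the array well above background. Neither was well above background on any other array. Hoxc9, which sets thoracic identity in motor neurons, had a signal of -2.38 in the Wi control, of -4.59 (RAX-positive) and -7.37 (RAX-negative) after activin, and of -7.12 and -7.52 after SAG. In cortex, diencephalon/hypothalamus and eye it was -8.04, -8.93 and -7.66, and activin RAX-positive cells and the Wi control were well above background. For Hoxc9 activin RAX-positive cells were the other array with a call of well above background.

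Further Hox genes were detected in the Wi control below the mark. Hoxb5, Hoxb8, Hoxd9, Hoxd12 and Hoxd13 were well above background there at -5.78 to -5.11 and on no other array. Together with Hoxb7, Hoxb9 and Hoxb13 this made 8 genes that were well above background in the Wi control alone. On the activin RAX-positive array the same was true of 2 genes, Hoxd3 at -4.94 and Hoxd11 at -5.08.

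The comparisons of the Wi control with each sorted population were added after the data had been seen. A gene was called higher or lower where the brighter array was well above background and the difference reached a log2 of 1 (2-fold), with the dimmer array set no lower than the lowest signal among its probes well above background. Folds against an array where the gene was not well above background are therefore given as at least N-fold. Errors of log2 differences are those of the scanner software for the spots and hold no spread between cultures. Against activin RAX-positive cells, 15 of 34 detected Hox genes were higher in the Wi control (44.1%, against 13.3% of 29433 detected genes) and 8 were lower (23.5%, against 25.4%). Against activin RAX-negative cells, 14 of 28 were higher (50.0%, all genes 16.8%) and 1 was lower (3.57%, all genes 18.8%). Against SAG RAX-positive cells, 16 of 31 were higher (51.6%, all genes 17.7%) and 2 lower (6.45%, all genes 17.4%). Against SAG RAX-negative cells, 14 of 30 were higher (46.7%, all genes 14.2%) and 3 lower (10.0%, all genes 16.9%). The median difference over the 34, 28, 31 and 30 detected Hox genes was 0.48, 0.98, 1.12 and 0.75 log2 in that order, beside -0.39, -0.04, -0.07 and -0.05 over all detected genes.

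These comparisons share the Wi control array, so each gene's values stand side by side and do not support each other. Hoxc6 in the Wi control exceeded activin RAX-positive cells by 5.33-fold (2.41 ± 0.23 log2) and RAX-negative cells by 8.11-fold (3.02 ± 0.30 log2), and the SAG populations by at least 15.5-fold and at least 11.1-fold. The Wi control was higher in Hoxc4 than activin RAX-positive and RAX-negative cells by 5.73-fold (2.52 ± 0.26 log2) and at least 8.08-fold, and than those of SAG by 10.1-fold (3.33 ± 0.32 log2) and 8.13-fold (3.02 ± 0.35 log2). Hoxa7 in the Wi control exceeded activin RAX-positive cells by 5.91-fold (2.56 ± 0.25 log2) and RAX-negative cells by at least 8.77-fold, and the SAG populations by 9.47-fold (3.24 ± 0.30 log2) and 6.43-fold (2.69 ± 0.29 log2). These genes differed by 2-fold or more from each sorted population. All genes named in this paragraph had passed the receptor mark in the Wi control and in none of the sorted populations. Higher levels in the Wi control therefore follow in part from how the genes were chosen. For Hoxb7 the lower bounds were 12.5-fold, 8.87-fold, 13.1-fold and 9.43-fold over activin RAX-positive, activin RAX-negative, SAG RAX-positive and SAG RAX-negative cells. Hoxb9 was higher in the Wi control by at least 10.8-fold and 7.6-fold over activin RAX-positive and RAX-negative cells, and by at least 11.3-fold and 8.09-fold over those of SAG. For Hoxb13 the lower bounds were 8.07-fold, 5.71-fold, 8.46-fold and 6.07-fold over activin RAX-positive, activin RAX-negative, SAG RAX-positive and SAG RAX-negative cells. The folds of these Hoxb genes are lower bounds throughout, since the sorted cells were not well above background. Hoxc9 in the Wi control exceeded activin RAX-positive cells by 4.65-fold (2.22 ± 0.25 log2) and RAX-negative cells by at least 7.82-fold, and the SAG populations by at least 11.6-fold and at least 8.32-fold. For Hoxa3 the lower bounds were 9.61-fold, 6.79-fold, 10.1-fold and 7.22-fold over activin RAX-positive, activin RAX-negative, SAG RAX-positive and SAG RAX-negative cells. Hoxb2 in the Wi control exceeded activin RAX-positive cells by 3.56-fold (1.83 ± 0.27 log2) and RAX-negative cells by at least 4.5-fold, and the SAG populations by at least 6.67-fold and at least 4.78-fold. Hoxb4 was higher by at least 4.2-fold, 2.97-fold, 4.4-fold and 3.16-fold in the same order of sorted cells. The Wi control was higher in Hoxa2 than activin RAX-positive and RAX-negative cells by 4.56-fold (2.19 ± 0.32 log2) and at least 4.21-fold, and than those of SAG by at least 6.25-fold and 4.01-fold (2.00 ± 0.35 log2). Hoxb6 in the Wi control exceeded activin RAX-positive cells by 3.13-fold (1.65 ± 0.24 log2) and RAX-negative cells by at least 5.82-fold, and the SAG populations by 4.14-fold (2.05 ± 0.26 log2) and at least 6.19-fold.

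Lower in the Wi control than in activin RAX-positive cells were Hoxa4, Hoxa6, Hoxa13, Hoxc10, Hoxc12, Hoxd3, Hoxd10 and Hoxd11, with log2 differences of -2.30 to -1.09, a share close to that of all genes. For Hoxa13, Hoxc12, Hoxd3, Hoxd10 and Hoxd11 these are bounds, since the Wi control was not well above background. Hoxa6 had -1.97 ± 0.28 log2 and Hoxc10 -1.65 ± 0.27 log2. Hoxa4 was also lower than in activin RAX-negative cells (-1.62 ± 0.36 log2). Hoxa13 was lower than in both SAG populations, Hoxc12 than in SAG RAX-positive cells, and Hoxa6 and Hoxd10 than in SAG RAX-negative cells, by log2 differences of -1.36 to -1.12 that are bounds except for Hoxa6. With a normexp background correction 0 Hox genes were lower in any of these 4 comparisons, and the counts of higher genes became 10 of 33, 11 of 28, 8 of 31 and 3 of 20 detected. These shares were 30.3%, 39.3%, 25.8% and 15%, beside 10.4%, 11.7%, 11.4% and 8.67% of all genes with normexp. Under quantile normalization 23 Hox genes were higher and 3 lower than in activin RAX-positive cells. Scaling also moved the split of all calls: 34.4% of all called genes were higher in the Wi control than in activin RAX-positive cells, against 48.6% with arrays scaled to the median, 55.4% with quantile normalization and 53.2% in the authors' deposited values. Against SAG RAX-negative cells the share was 45.8%, against 57.7% with median scaling and 59.4% in the deposited values.

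**Figure D3:**
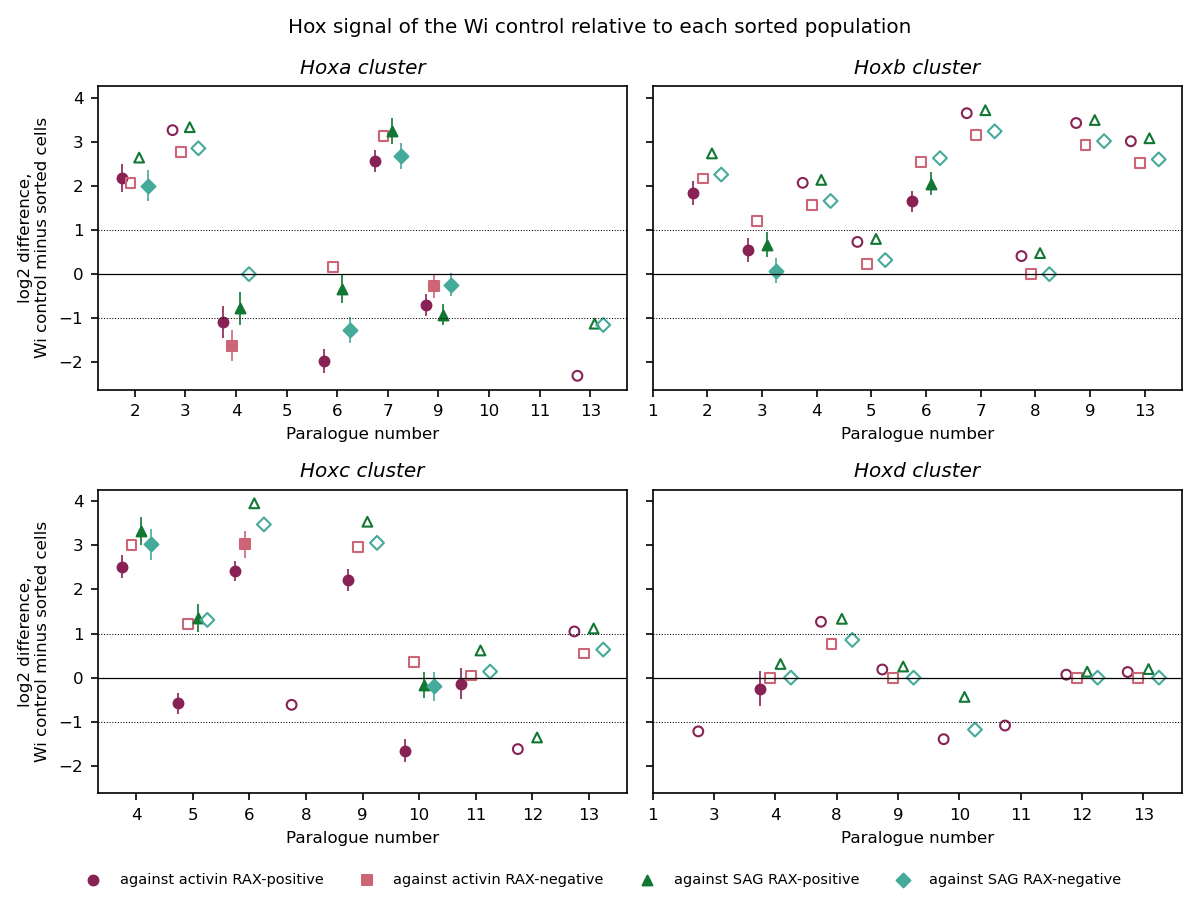
Difference of Hox signal between the Wi control and each of the 4 sorted populations (log2, Wi control minus sorted cells) by cluster and paralogue number, for those of 38 Hox genes that were well above background on the brighter of the arrays compared. Filled symbols are measured on both arrays, with the measurement error of the scanner software as bars, and open symbols are lower bounds in size. Symbols above the upper dotted line (2-fold) are common in the Hoxa, Hoxb and Hoxc panels, and in the Hoxd panel Hoxd8 crosses it, by at least 2.41-fold against activin RAX-positive and 2.52-fold against SAG RAX-positive cells.

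The start regions of 3 of these genes are shown because the motifs searched there bear on known inputs to Hox clusters. RefSeq start windows (GRCm38.p6) were found for 22 of the 39 Hox genes, in 24 windows, and the 250 bases before the start were searched on both strands. AGGTCA, the core letters bound by retinoic acid receptors, occurred in 6 of 24 Hox windows and in 4607 of 32851 windows of all genes. TTTATG, a core bound by Cdx factors, occurred in 5 Hox windows and in 3536 of all (10.8%). TGACAG, bound by the Meis cofactors, occurred in 2 Hox windows and in 5210 of all (15.9%). A match describes letters and shows no binding. In Hoxa7 (chr6:52218574-52218823, - strand) TTTATG stands in capitals 2 times, in Hoxc4 (chr15:103034145-103034394, + strand) AGGTCA stands 1 time as its reverse complement, and in Hoxa3 (chr6:52213068-52213317, - strand) TGACAG stands 1 time as its reverse complement.
Hoxa7: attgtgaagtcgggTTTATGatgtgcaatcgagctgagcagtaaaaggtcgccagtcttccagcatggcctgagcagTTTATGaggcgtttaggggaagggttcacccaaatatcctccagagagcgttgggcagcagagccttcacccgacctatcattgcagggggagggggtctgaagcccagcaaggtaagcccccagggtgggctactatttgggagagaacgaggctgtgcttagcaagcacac
Hoxc4: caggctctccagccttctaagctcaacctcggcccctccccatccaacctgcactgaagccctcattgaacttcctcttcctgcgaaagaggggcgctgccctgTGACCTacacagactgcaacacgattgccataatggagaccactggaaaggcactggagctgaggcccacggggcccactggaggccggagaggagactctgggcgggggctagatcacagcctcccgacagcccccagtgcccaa
Hoxa3: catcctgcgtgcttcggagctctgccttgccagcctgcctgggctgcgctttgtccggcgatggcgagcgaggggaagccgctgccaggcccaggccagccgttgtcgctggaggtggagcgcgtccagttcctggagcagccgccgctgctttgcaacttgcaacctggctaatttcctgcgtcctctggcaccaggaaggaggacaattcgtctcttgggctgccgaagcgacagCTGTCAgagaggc

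Among the dissected tissues, diencephalon/hypothalamus held the clearest Hox signals, and these were mostly low-numbered genes. Among the 6 genes above the mark there were Hoxa3, Hoxb3 and Hoxd1, numbered 1 to 4, and also Hoxa9 and Hoxd8. The signals of Hoxa3 and Hoxb3 rest on the probe used. Against cortex and against eye, their other probes were not well above background on the brighter of the arrays compared. The Hoxb3 probe used covers the recognition helix. Hoxd1, which acts in pain-sensing neurons, measured -8.23 in the Wi control, against -5.87 and -7.38 in the RAX-positive and RAX-negative cells of activin and -6.27 and -7.49 in those of SAG. Cortex had -8.03, diencephalon/hypothalamus -4.02 and eye -5.30, and diencephalon/hypothalamus and eye were well above background. No cultured population had Hoxd1 well above background. Hoxd8, a trunk gene, stood at -4.58 in the Wi control, -8.04 and -7.45 in activin RAX-positive and RAX-negative cells, and -8.07 and -7.58 in SAG RAX-positive and RAX-negative cells. The tissues gave -6.53 (cortex), -3.98 (diencephalon/hypothalamus) and -6.21 (eye), and the Wi control, diencephalon/hypothalamus and eye were well above background. Hoxb3, another hindbrain gene, had a signal of -4.14 in the Wi control, of -4.69 (RAX-positive) and -6.65 (RAX-negative) after activin, and of -4.81 and -4.23 after SAG. Its signal was -4.21 in cortex, -3.31 in diencephalon/hypothalamus and -5.10 in eye, and activin RAX-negative cells were not well above background. Hoxa9, a gene of the hind trunk, varied little and measured -4.53 in the Wi control, against -3.83 and -4.26 in the RAX-positive and RAX-negative cells of activin and -3.61 and -4.29 in those of SAG. Cortex had -4.11, diencephalon/hypothalamus -4.41 and eye -4.28, and all 8 arrays were well above background. Its 8 values lay between -4.53 and -3.61, and the mark lay between -4.61 and -3.59, so that whether Hoxa9 passed depended on the height of the mark on each array.

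Against cortex, 4 of 15 detected Hox genes were higher in diencephalon/hypothalamus (26.7%, against 10.1% of all genes) and 0 were lower (all genes 9.02%). Of those higher, Hoxa3 was at least 8.45-fold higher, Hoxd8 at least 4.04-fold and Hoxd1 at least 3.93-fold. The median over the 15 detected Hox genes was 0.20 log2, beside -0.07 over all detected genes. Scaled to the array medians, 28.4% in place of 52.8% of all called genes were higher in diencephalon/hypothalamus, the median of all genes moved to -0.40, and the same number of 4 Hox genes was called. For Hoxa3 the authors' deposited log2 values gave a difference of 1.91, whereas the mean of its 2 probes gave 0.00 and ended the call. Normexp left 2 Hox genes higher.

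Eye differed from cortex in 1 of 12 detected Hox genes (8.33%, against 12.3% of all genes higher), and 0 were lower (all genes 7.75%). With median scaling, quantile normalization or normexp 0 Hox genes were higher. With median scaling 26.2% of all called genes were higher in eye, against 61.4% before. Against diencephalon/hypothalamus, 6 of 17 detected Hox genes were lower in eye (35.3%, all genes 7.99%) and 1 was higher (5.88%, all genes 10.4%). Hoxa3 was 12.4-fold lower in eye (-3.63 ± 0.32 log2). Hoxd8 was 4.69-fold lower (-2.23 ± 0.31 log2), Hoxb3 3.46-fold lower (-1.79 ± 0.23 log2) and Hoxd1 2.42-fold lower (-1.28 ± 0.24 log2). Hoxc13, which is active in hair and nails, was at least 3.38-fold lower, and Hoxb4 was at least 2.59-fold higher in eye, with 0.35 log2 in the authors' deposited values. With median scaling 46.6% of all called genes were higher in eye than in diencephalon/hypothalamus, against 56.6% before.

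**Figure D4:**
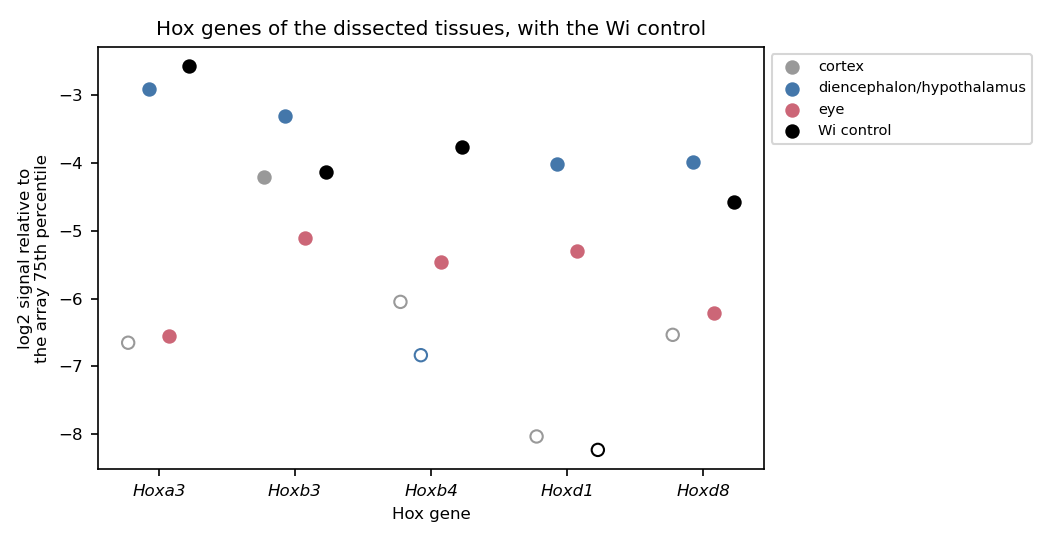
Signal of 5 Hox genes (log2 relative to the 75th percentile of the array) in cortex, diencephalon/hypothalamus and eye, with the Wi control beside them. Filled points are well above background and open points are not. Hoxa3 stands at -2.92 in diencephalon/hypothalamus and is not well above background in cortex.

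Markers of other tissues moved with some of these comparisons. The summed signal of 16 genes of neural crest and mesenchyme was 5295% of the 75th percentile in diencephalon/hypothalamus, 4288% in cortex and 10598.5% in eye, with 15, 14 and 16 of 16 well above background. That of 13 hindbrain and spinal cord genes was 148% in diencephalon/hypothalamus, 62.7% in cortex and 408% in eye. Tlx3 of that list was not well above background in any of the 3 tissues. Hindbrain and spinal cord genes were higher in diencephalon/hypothalamus than in cortex for 3 of 10 detected (30%, all genes 10.1%), Gbx2 and Lmx1b among them, and 0 were lower (all genes 9.02%). Their part in the Hox signals was not tested.

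In the sorted cells few Hox genes differed by gate or by factor, and most of these had, among the sorted cells, their highest level on the activin RAX-positive array with its raised low end. After activin, 4 of 22 detected Hox genes were higher in RAX-positive than in RAX-negative cells (18.2%, all genes 10.1%) and 0 were lower (all genes 6.06%). Hoxa6 was at least 4.38-fold higher, Hoxc10 at least 4.02-fold, Hoxc5 at least 3.49-fold and Hoxa13 at least 2.80-fold. After SAG, 0 of 13 detected Hox genes were higher (all genes 4.17%) and 0 lower (all genes 9.53%). The median of the detected Hox genes was 0.53 log2 for the gate after activin (22 genes) and -0.03 after SAG (13 genes), beside 0.12 and 0.02 over all genes detected. Whether the gate differed between the factors was not tested. After activin, 62.6% of all called genes were higher in RAX-positive cells, against 30.1% with median scaling and 35.7% with quantile normalization. After SAG those shares were 30.4%, 43.2% and 38.7%. The 4 Hox calls after activin numbered 0 with normexp, and Hoxc5, Hoxc10 and Hoxa6 were the 3 that also passed the receptor mark.

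The 3 genes above the mark in activin RAX-positive cells were a trunk gene and genes known from neck and lumbar motor neurons. They made up 7.69% of the Hox genes, not far from the 5.04% of receptor genes that pass by construction. Their levels on that array, -3.54 to -3.21, stood against a mark of -3.59, so their passing does not show a position along the body axis. Hoxa6, the trunk gene, stood at -5.18 in the Wi control, -3.21 and -5.42 in activin RAX-positive and RAX-negative cells, and -4.85 and -3.92 in SAG RAX-positive and RAX-negative cells. The tissues gave -6.43 (cortex), -6.12 (diencephalon/hypothalamus) and -6.04 (eye), and activin RAX-negative cells and cortex were not well above background. Hoxc5, which supports motor neurons of the diaphragm, had a signal of -4.12 in the Wi control, of -3.54 (RAX-positive) and -7.35 (RAX-negative) after activin, and of -5.48 and -7.60 after SAG. In cortex, diencephalon/hypothalamus and eye it was -8.14, -6.01 and -6.61, and activin RAX-positive cells, SAG RAX-positive cells, the Wi control and diencephalon/hypothalamus were well above background. The Wi control was the next highest for Hoxc5. Hoxc10, a gene of lumbar motor neurons, measured -4.99 in the Wi control, against -3.34 and -7.42 in the RAX-positive and RAX-negative cells of activin and -4.83 and -4.79 in those of SAG. Cortex had -8.09, diencephalon/hypothalamus -6.67 and eye -6.62, and activin RAX-positive cells, SAG RAX-positive cells, SAG RAX-negative cells and the Wi control were well above background. It was well above background on the 2 SAG arrays and the Wi control too, and in no tissue.

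Activin and SAG were compared within each gate. In RAX-positive cells 6 of 22 detected Hox genes were higher after activin (27.3%, all genes 13.6%) and 0 were lower (all genes 6.17%). Hoxc5 was 3.83-fold higher (1.94 ± 0.32 log2), Hoxa6 3.11-fold (1.64 ± 0.26 log2), Hoxc10 2.81-fold (1.49 ± 0.26 log2) and Hoxa13 2.27-fold (1.18 ± 0.28 log2). Hoxc6 was at least 2.91-fold and Hoxc9 at least 2.49-fold higher. The Hox median was 0.78 log2 and that of all detected genes 0.27. Of all called genes 68.9% were higher after activin, against 51.0% with median scaling and 46.9% with quantile normalization. With normexp 0 Hox genes were higher, and with the authors' deposited values 2. The 44.1% of receptor genes well above background in activin RAX-positive cells, against 23.8% in SAG RAX-positive cells, moved with these calls, and their part in them was not tested.

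In RAX-negative cells 1 of 12 detected Hox genes was higher after activin than after SAG (8.33%, all genes 13%) and 2 were lower (16.7%, all genes 14.4%). Hoxa4, a gene of the neck and lung, was at least 2.47-fold higher, and Hoxa6 and Hoxb3 were at least 2.67-fold and 2.17-fold lower. Hoxa4 was detected at -4.13 in activin RAX-negative cells and on 6 further arrays, from -5.75 to -4.62, and was above the mark on none. Median scaling raised the share of all called genes that were higher after activin from 47.5% to 70.5%, and the median of all genes from 0.05 to 0.40 log2.

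The other 19 Hox genes were below the mark on all 8 arrays. Hoxa13, a gene of the digits and the genital tubercle, stood at -3.86 on the activin RAX-positive array against a mark of -3.59, and Hoxa4 at -4.13 in activin RAX-negative cells against a mark of -3.97. The remaining Hoxc genes below the mark, Hoxc8, Hoxc11, Hoxc12 and Hoxc13, were well above background on 2 or 3 arrays each, at -6.36 to -4.54 where measured. Of the Hoxd genes, Hoxd4 was well above background in activin RAX-positive cells and the Wi control, and Hoxd10 in activin RAX-positive and both SAG populations.

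Where a gene had 2 probes, these agreed in part. For Hoxa3 the other probe, placed by the files on an Ensembl transcript that starts further upstream (chr6:52149150-52149208, - strand), was well above background in activin RAX-positive cells at -5.57 and stood at -6.81 in the Wi control. The other Hoxb3 probe, which lies outside the recognition helix, was well above background in the Wi control alone, at -5.74. In diencephalon/hypothalamus it stood at -9.15, where the homeodomain probe had -3.31, so the order of the arrays for Hoxb3 differs between its probes. Both Hoxa13 probes were well above background in activin RAX-positive cells (-3.86 and -4.43) and SAG RAX-positive cells (-5.04 and -5.57). With the mean of both probes the Wi control exceeded activin and SAG RAX-negative cells in Hoxa3 by 0.65 and 0.74 log2, under the size for a call. For Hoxb3 that mean gave -0.86 log2 for eye against diencephalon/hypothalamus, 0.40 for the Wi control against activin RAX-negative cells and 0.00 for activin against SAG in RAX-negative cells, so that its calls there ended. For Hoxa9 the other probe was highest in the Wi control (-5.07), where the probe used was lowest. The other Hoxd11 probe was well above background on no array.

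**Figure D5:**
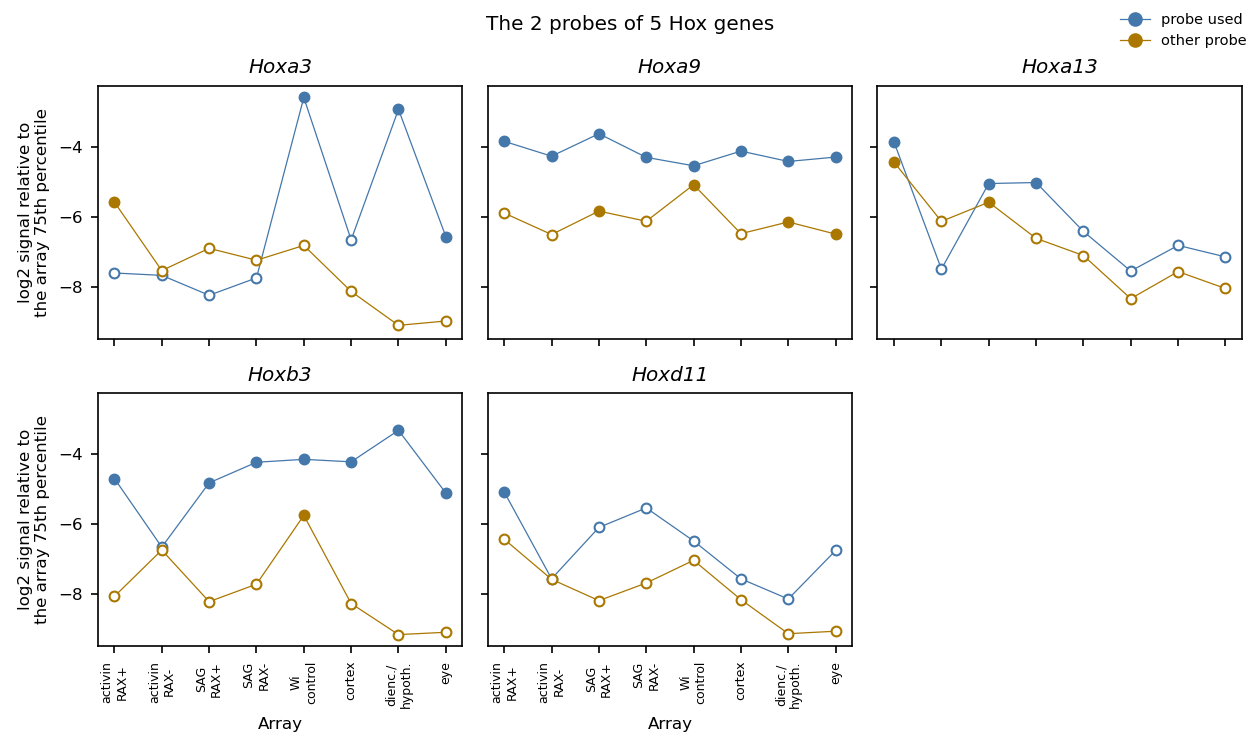
Signal (log2 relative to the 75th percentile of the array) of both probes of 5 Hox genes that have 2, across the 8 arrays. Filled points are well above background and open points are not, and lines join the arrays of one probe for reading, not as a series. The probes of Hoxa3 and Hoxb3 part in diencephalon/hypothalamus, and those of Hoxa13 are both highest in activin RAX-positive cells.

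The genes that work with or upstream of Hox proteins were read from lists. All 9 TALE cofactors (Meis, Pbx and Pknox genes, whose proteins bind DNA beside Hox proteins) were well above background on all 8 arrays. Meis2 was higher in the Wi control (3.56) than in each sorted population (2.10, 0.30, 0.70 and -0.29 in activin RAX-positive, activin RAX-negative, SAG RAX-positive and SAG RAX-negative cells) and stood at 4.30 in cortex. Pbx2 was lower in the Wi control (2.11) than in the sorted cells (3.51 to 3.91). Meis1 was lower in the Wi control than in activin RAX-positive cells and higher than in SAG RAX-positive cells.

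Of the 3 caudal genes, Cdx4 was not well above background on any array. Cdx2, which opens trunk Hox genes, stood at -4.91 in the Wi control, at -4.79 and -2.77 in activin RAX-positive and RAX-negative cells, and at -7.49 and -2.13 in SAG RAX-positive and RAX-negative cells. It was lower in the Wi control than in both RAX-negative populations. It was at least 2.00-fold higher in the Wi control than in SAG RAX-positive cells, a bound that lay just under the size for a call.

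Of 13 genes of retinoic acid synthesis, breakdown and response, 5 were higher and 4 lower in the Wi control than in activin RAX-positive cells, and 2 and 4 against activin RAX-negative cells. Against SAG RAX-positive cells 5 were higher and 1 lower, and against SAG RAX-negative cells 6 and 3. As shares of those detected, 38.5%, 16.7%, 41.7% and 50.0% were higher, beside 13.3%, 16.8%, 17.7% and 14.2% of all genes. The shares that were lower were 30.8%, 33.3%, 8.33% and 25%, beside 25.4%, 18.8%, 17.4% and 16.9% of all genes. Cyp26a1, an enzyme that breaks down retinoic acid and is itself induced by it, stood at -1.24 in the Wi control, 0.33 in activin RAX-negative and -4.72 in activin RAX-positive cells. It was not well above background in either SAG population. Dhrs3, a retinaldehyde reductase, stood at 1.30 in the Wi control, 1.49 in activin RAX-negative cells and -4.02 in both RAX-positive populations. In eye 12 of 12 detected genes of this list were higher than in diencephalon/hypothalamus (all genes 10.4%), with Aldh1a1, a synthesis enzyme of the retina, at 6.66 against -4.56.

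Polycomb genes, which keep Hox clusters silent, were well above background for 17 of 17 on all 8 arrays. In the Wi control 5, 5, 4 and 2 of 17 were lower than in activin RAX-positive, activin RAX-negative, SAG RAX-positive and SAG RAX-negative cells, and 1, 2, 0 and 0 were higher. The shares that were lower, 29.4%, 29.4%, 23.5% and 11.8%, stood beside 25.4%, 18.8%, 17.4% and 16.9% of all genes. Cbx2 was lower in each of these comparisons, and Ezh2, the methyltransferase of the complex, in 3 of them. Ezh2, Eed and Suz12 were lower in diencephalon/hypothalamus than in cortex (17.6% of the list, all genes 9.02%). Trithorax genes and H3K27 demethylases, which counter Polycomb silencing, numbered 7 on the array, and all 7 were well above background on all 8 arrays.

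Markers of other cell types moved with the Wi control too. The summed signal of 7 genes of pluripotent cells was 16724% of the 75th percentile there, with 7 of 7 well above background. In the sorted cells it was 5675% (activin RAX-negative), 581% (SAG RAX-negative), 144% (SAG RAX-positive) and 141% (activin RAX-positive). Dppa5a stood at 7.03 in the Wi control and Pou5f1 at 1.98. The median of the 7 genes was 2.22 in the Wi control and 2.05 in activin RAX-negative cells. Against activin RAX-negative cells 3 of the 7 were higher in the Wi control (42.9%, all genes 16.8%). Pou5f1 was the 1 gene that was lower (14.3%, all genes 18.8%). For 13 hindbrain and spinal cord genes the sum was 512% in the Wi control and 236% to 615% in the sorted cells, with Tlx3 among those not well above background in the Wi control. Of 12, 11, 12 and 11 detected, 6, 4, 8 and 6 were higher in the Wi control than in the sorted populations, taken as activin RAX-positive, activin RAX-negative, SAG RAX-positive and SAG RAX-negative (all genes 13.3%, 16.8%, 17.7% and 14.2%). Egr2, a gene of hindbrain segments, was lower in the Wi control (-2.81) than in each sorted population (0.09 to 1.64). Of the 11 genes of the primitive streak and early mesoderm the sum was 710.3% in the Wi control, 1599% in activin RAX-negative cells and 72.9% to 222% in the other sorted cells. T, a gene of the streak and tail bud, stood at 1.36 in the Wi control and between -7.65 and -0.94 in the sorted cells, while Mixl1, Mesp1, Msgn1, Hand1 and Meox1 were not well above background in it. Neural crest and mesenchyme genes summed to 860.2% in the Wi control and 123% to 2680% in the sorted cells. Against activin RAX-positive, activin RAX-negative, SAG RAX-positive and SAG RAX-negative cells, 9, 4, 14 and 2 of 16 were higher there. These shares of 56.25%, 25%, 87.5% and 12.5% stood beside 13.3%, 16.8%, 17.7% and 14.2% of all genes. In the same order 3, 10, 1 and 5 were lower (18.75%, 62.5%, 6.25% and 31.25%, all genes 25.4%, 18.8%, 17.4% and 16.9%). The part of these cell types in the Hox signals was not tested.

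Midbrain and isthmus genes summed to 493% in the Wi control, against 189% to 1208% in the sorted cells. Of the 5 detected, 3, 2, 3 and 2 were nonetheless higher in the Wi control than in activin RAX-positive, activin RAX-negative, SAG RAX-positive and SAG RAX-negative cells, beside 13.3%, 16.8%, 17.7% and 14.2% of all genes. En2, a gene of the midbrain and isthmus, stood at 283% of the 75th percentile in the Wi control against 10.5% to 21.4% in the sorted cells, and Pax7 was higher in each comparison too. Fgf8 was lower in the Wi control than in 3 of the sorted populations. Definitive endoderm genes summed to 444%, against 158% to 2347%, with Apoa1 not well above background. Of 9, 9, 8 and 8 endoderm genes detected in the same order of sorted cells, 3, 2, 7 and 5 were higher in the Wi control. In that order 0, 7, 0 and 1 were lower (all genes 25.4%, 18.8%, 17.4% and 16.9%). Skeletal muscle genes summed to 39.9%, against 10.8% to 112%, with Myf5 and Myog not well above background. Endothelium and blood genes summed to 1255% in the Wi control, against 365% to 659.6% in the sorted cells and 22208% to 30764% in the tissues, and Hbb-y and Alas2 were not well above background in it. Anterior neural factors summed to 14794% in the Wi control and 9927% to 27504% in the sorted cells.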

How the data were processed

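Cy3-labelled cRNA made from 50 ng of pooled total RNA was read on 1-colour Agilent arrays, 1 for each of the 8 groups. Per the file headers the authors used Agilent Feature Extraction 10.7.3.1, but the submitters' processing notes give 9.1, and list limma. Each deposited scanner file gives the intensity of 62976 spots, with the authors' background subtraction and no scaling from array to array, with a call of well above background and a measurement error for each spot. The deposited value table gives log2 values that the authors normalized between arrays by a method not given in the sources used here, and it served as an alternative. Probe positions are those of the files on mm9.

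The 3671 control spots and 136 to 307 outlier spots per array were left out, spots of a probe were averaged in log2, and each array was scaled to its 75th percentile. Of 34541 gene names, 11219 had several probes, and the probe brightest on average over all arrays stood for such a gene. Calls of size were made as defined in the report, in 7 planned and 4 added comparisons, with no p-value because each group had 1 array. Hox genes above the receptor mark on at least 1 array were named with all their values, except 1 that is not reported here, and of other lists at most the 4 members with the widest range over the arrays. The members, lists and alternatives were chosen with earlier results of these data known. Marker lists of other cell types were hindbrain and spinal cord, midbrain and isthmus, primitive streak and early mesoderm, definitive endoderm, neural crest and mesenchyme, endothelium and blood, skeletal muscle, and pluripotent cells. Alternatives were scaling to the median, quantile normalization, normexp background correction (offset 50), the deposited log2 values, the mean of all probes, a log2 size of 2 and other calls of detection. Python 3.11.15, pandas 2.3.3, numpy 2.4.6 and, for normexp alone, limma 3.58.1 in R 4.3.3 were used, and the calls were checked on simulated data. Start windows came from RefSeq (GRCm38.p6). The number of arrays limits the precision, and measurement errors cover the spots alone.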

Additional observations from a re-analysis of the deposited data

Results flagged for a closer look

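Hoxa6 stood out because the difference between activin and SAG had opposite signs in the sorted gates. In RAX-positive cells it was 1.64 log2 higher after activin, and in RAX-negative cells it was lower after activin with a bound of -1.42 log2. The RAX-positive value rests on the activin RAX-positive array with its raised low end. With normexp 0 Hox genes were higher in that comparison. In SAG RAX-negative cells Hoxa6 stood at -3.92, below the receptor mark of -3.74. Each value compares 1 array with another, and the difference between the gates was not tested. The groups had 1 array each, so no array could be examined as an outlier within its group.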

How the results depend on the processing

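No paired analysis was possible because each group had 1 array. Detection depended most on the call used. Above the receptor mark, the Hox genes counted were 3 in activin RAX-positive, 0 in activin RAX-negative, 1 in SAG RAX-positive and 0 in SAG RAX-negative cells, 13 in the Wi control, 6 in diencephalon/hypothalamus and 0 in eye. With the scanner's weaker call of a positive and significant signal they were 34, 18, 27 and 20 in the sorted cells in that order, 15 in cortex, 30 in diencephalon/hypothalamus and 27 in eye, and 37 in the Wi control. Counting any probe of a gene kept each count within 1.5 times. For comparisons of arrays, counts that moved by more than 1.5 times were as follows. With median scaling, 1 Hox gene was lower for the gate after activin, 2 were higher and 1 lower for activin against SAG in RAX-negative cells, 0 were higher and 1 lower for eye against cortex, and 5 were lower for the Wi control against activin RAX-positive cells. Quantile normalization gave 2 lower for the gate after activin, 3 higher and 0 lower for activin against SAG in RAX-negative cells, and 0 higher and 1 lower for eye against cortex. It also gave 23 higher and 3 lower for the Wi control against activin RAX-positive cells, and 1 lower against each SAG population. Normexp gave 0 higher for the gate after activin, for activin against SAG in both gates, for eye against cortex and for eye against diencephalon/hypothalamus. It left 2 higher for diencephalon/hypothalamus against cortex, 2 lower for eye against diencephalon/hypothalamus and 1 lower for activin against SAG in RAX-negative cells. For the Wi control it left 8 higher against SAG RAX-positive and 3 against SAG RAX-negative cells, and 0 lower in all 4 comparisons. Hoxc5 turned from 1.31 to -0.0755 log2 for the Wi control against SAG RAX-negative cells with normexp, the 1 reversal among the named genes. The deposited values gave 2 lower for the gate after activin, 2 higher for activin against SAG in RAX-positive cells, 3 higher and 0 lower in RAX-negative cells, 0 higher for eye against diencephalon/hypothalamus, 3 lower for the Wi control against activin RAX-positive cells and 0 lower against the other 3. The mean of all probes gave 1 lower for activin against SAG in RAX-negative cells, 0 higher for eye against cortex and 1 lower for the Wi control against SAG RAX-positive cells. At a log2 size of 2 there were 2 higher for the gate after activin, 0 higher for activin against SAG in either gate and 0 lower in RAX-negative cells, 0 higher for eye against cortex and against diencephalon/hypothalamus, and 3 lower for the last. At that size the Wi control had 1 lower against activin RAX-positive cells and 0 against the other 3. Above the receptor mark there were 3 higher for activin against SAG in RAX-positive cells, 0 in either direction in RAX-negative cells, 0 higher for eye against cortex and against diencephalon/hypothalamus, and 2, 0, 0 and 0 lower for the Wi control against the sorted populations. The causes of these changes were not tested, except that a larger size and the receptor mark leave fewer genes to call. Dim signals near the background limit most Hox values in the sorted cells.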

Other observations

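Noncoding RNAs of the clusters were mostly dark. Hoxb5os, which lies beside Hoxb5, stood at -2.89 in activin RAX-negative cells, at -4.00 in the Wi control and at -6.50 in diencephalon/hypothalamus, and was not well above background on the other 5 arrays. Hoxb5 itself was well above background in the Wi control alone, at -5.11. Hoxa11os was well above background on all 8 arrays, at -4.57 to -3.57, while Hoxa11 was so on none. Those levels varied little and lay in the range of the receptor marks, -4.61 to -3.59. In activin RAX-positive cells, SAG RAX-negative cells and cortex 0 of the 4 noncoding RNAs passed the mark. Hottip was well above background on no array, and Hoxd3os1 in activin RAX-positive cells alone, at -5.46.

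Of 12 genes that neighbour the clusters, Evx1, a homeobox gene beyond the posterior end of Hoxa, stood at -3.32 in the Wi control and -4.49 in activin RAX-negative cells and was not well above background elsewhere. It was higher in the Wi control than in each sorted population. Evx2, its counterpart beside Hoxd, was higher than in 3 of the 4. Skap1, beside Hoxb, stood at -0.50 in cortex and -1.45 in diencephalon/hypothalamus, where most Hoxb genes were not well above background.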
